A study of Rattus norvegicus with 32 samples.

Results

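The hippocampal transcriptomes described here came from 8 of the study's 32 rats, all male and all born to dams that received extra choline while pregnant. They were 4 formerly iron-deficient rats (FIDch, diet label IDch) and 4 always iron-sufficient rats (ISch), and the members were chosen by diet label among the male libraries of sequencing batch I. The comparison asked how early-life iron deficiency changed the adult hippocampus when choline was supplied before birth in both arms. The full design crossed iron and choline in each sex, giving IS, ISch, FID and FIDch with 4 rats each, and sequenced the males as batch I and the females as batch II.

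All rats were Sprague-Dawley and 65 days old. The FIDch rats descended from dams on an iron-deficient diet with added choline and were returned to iron after birth, so they were iron-replete when the hippocampus was taken. The ISch rats descended from dams on an iron-sufficient diet with the same added choline. A FID rat shared the iron history of FIDch without the choline, and an IS rat had neither. The study's methods describe 1 male per litter in each experiment, but the labels do not give the litters of the sequenced rats. Total RNA was made into TruSeq libraries, and the deposited values were raw counts of reads per gene, expressed here as CPM, the count scaled to a common library size (the cpm function of edgeR) after TMM normalisation.

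Iron is a cofactor of the respiratory chain, of heme and of enzymes that make monoamines and myelin lipids, and the hippocampus demands much of it while its circuits form. Choline feeds phosphatidylcholine and acetylcholine synthesis and, after oxidation, donates methyl groups. Among the genes described are clustered protocadherins, adhesion proteins whose isoforms are chosen in single neurons from tandem promoters and give each cell a surface identity.

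The libraries held 7959956, 3515806, 9007294 and 6721019 counts in FIDch replicates 1 to 4 and 8352157, 8387006, 7984868 and 9517503 counts in ISch replicates 1 to 4. FIDch replicate 2 was the shallowest of the 8, and the other 7 lay between 6721019 and 9517503 counts. A count of 0 in a library allowed at most 3 counts at a confidence of 95%, which was 0.853 CPM in FIDch replicate 2 and 0.315 CPM in ISch replicate 4 and covers counting error only. The counts matched a hippocampal origin. Prox1, the transcription factor that marks dentate granule cells, was at 120.4, 120.3, 125 and 123 CPM in FIDch and 126, 128, 125 and 125 CPM in ISch. Slc17a7, the vesicular glutamate transporter of pyramidal and granule cells, was at 2496, 2185, 2364 and 2394 CPM in FIDch and 2285, 2337, 2394 and 2360.1 CPM in ISch. Neither gene was called between the groups. Choroid plexus and ependyma markers summed to 13.3 ± 1.18 CPM in FIDch and 12.7 ± 2.39 CPM in ISch (SD, n = 4). Ccdc153 was the most abundant of these markers.

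Of the 8 libraries, 3 stood apart: FIDch replicate 2 and ISch replicates 1 and 2. Their names in the count table had a form that no other male library had. They took the positive end of the first principal component, which carried 35.1% of the variance, at 11.3, 10.8 and 8.33, whereas the other 5 libraries lay between −12.3 and −2.28. The second component, with 19.3%, ran from −9.76 in FIDch replicate 2 to 9.25 in ISch replicate 3. What the other name form stood for was not given in the labels, and its part in the results was not tested beyond leaving those libraries out or giving them a term of their own. Because the ISch group held 2 of them and FIDch 1, many results below are also given without these 3 libraries.

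**Figure D1:**
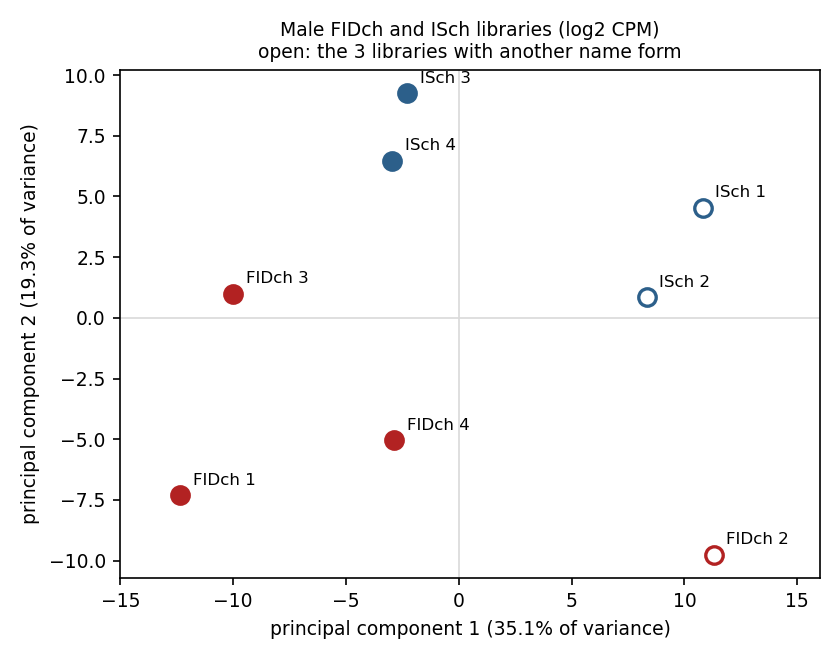
Position of the 4 FIDch (red) and 4 ISch (blue) male libraries on the first and second principal components of log2 CPM, with the share of variance on each axis. The 3 open symbols, FIDch 2, ISch 1 and ISch 2, lie between 8.33 and 11.3 on the first component and the 5 filled ones between −12.3 and −2.28.

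More genes were lower than higher in the FIDch hippocampus. Among genes with a symbol, the smallest p for a decrease belonged to the protocadherins Pcdhb6 and Pcdhb5, the secretory pathway gene Sec23ip and the mitochondrial cytochrome oxidase gene Mt-co2, and those for an increase to the sodium pump subunit Atp1a4 and the lysosomal transporter Spns1. Of 13958 genes tested with the quasi-likelihood test of edgeR, 1133 met the study's criterion, a log2 fold change beyond 0.2 in either direction with p below 0.05 before adjustment, which was 8.12% of the genes tested. Higher in FIDch were 431 genes (3.09%) and lower were 702 (5.03%), so that 62.0% of the called genes were lower. A gene that met the criterion is said below to be called, to have risen or to have fallen. Other differences depended on the libraries included. Among glucocorticoid receptors and their targets, 6 of 15 were called higher, and 1 of 15 without the 3 libraries. Among vessel markers, 5 of 13 were called higher, and 2 of 13 without those libraries. As single libraries were left out, 4 to 6 of the former and 2 to 5 of the latter were called higher.

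The differences were small in size. The median called increase was 23.9% and the median called decrease 18.2%, and a log2 fold change over 1 in either direction was reached by 12 of the higher and 16 of the lower genes. After Benjamini-Hochberg adjustment over all genes tested, 6 genes (0.043%) had an adjusted p under 0.05 in the edgeR quasi-likelihood test, 1 higher and 5 lower, and 12 had one under 0.1. The 6 were Pcdhb6, Pcdhb5, Sec23ip, Mt-co2 and 2 genes without a symbol. All 6 separated the groups without overlap, as 1064 genes (7.62%) did among all those tested. Without the 3 libraries that stood apart, 603 of 14156 genes were called higher and 892 lower, 27 had an adjusted p under 0.05, and 709 of the 1133 genes were called again. With FIDch replicate 2 alone left out, 614 of 14109 genes were called higher and 1020 lower. List counts given below for these settings are to be read beside those totals. The adjusted count also rested on single libraries: it was 76 with FIDch replicate 2 left out, 8 with ISch replicate 2 left out, 1 with ISch replicate 1 left out, and 0 with each of the other 5 left out in turn.

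The smallest p belonged to Pcdhb6, a beta protocadherin (ENSRNOG00000054953). Its level was 0.631, 0.282, 0.883 and 0.597 CPM in FIDch and 3.89, 2.98, 2.52 and 2.84 CPM in ISch. The 4 ISch libraries lay far above the 4 FIDch libraries with no overlap, and the FIDch values rested on few counts. FIDch replicate 2 was below the 0.853 CPM that a count of 0 allowed in it. FIDch replicates 1, 3 and 4 were above their own limits of 0.377, 0.333 and 0.446 CPM. The log2 fold change was −2.19 (SE 0.306, adjusted p = 0.0414). Pcdhb5 (ENSRNOG00000020084), the next gene upstream in the cluster, was at 3.54, 2.82, 5.08 and 4.33 CPM in FIDch and 10.6, 7.74, 8.69 and 8.82 CPM in ISch. Again the lowest ISch library stood above the highest FIDch library (log2 fold change −1.12, SE 0.177, adjusted p = 0.0483). Both genes stayed lower in every alternative run, with log2 fold changes of −1.88 for Pcdhb6 and −1.01 for Pcdhb5 without the 3 libraries, where the adjusted p values were 0.0698 and 0.0684.

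The fall was not shared by the genes on either side. Pcdhb4, the neighbour before Pcdhb5, was at 3.79, 3.95, 2.87 and 2.54 CPM in FIDch and 4.13, 2.98, 3.52 and 2.42 CPM in ISch. Pcdhb7, the neighbour after Pcdhb6, was at 6.57, 6.50, 6.07 and 7.16 CPM in FIDch and 6.32, 7.14, 7.55 and 6.41 CPM in ISch. In both neighbours the groups overlapped, with log2 fold changes of −0.010 (SE 0.232) and −0.061 (SE 0.137). Since beta protocadherins are each read from a promoter of their own, the stretch around a shared promoter motif is shown for the 2 genes that fell and the 2 neighbours that did not. The sequences are RefSeq promoters of build GRCr8, plus strand, written 5′ to 3′, and the capitals mark the motif GGTGGCGCT, which was searched on both strands.
Pcdhb4: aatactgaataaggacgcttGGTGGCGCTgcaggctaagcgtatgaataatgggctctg
Pcdhb5: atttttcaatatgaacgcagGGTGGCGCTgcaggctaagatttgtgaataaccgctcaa
Pcdhb6: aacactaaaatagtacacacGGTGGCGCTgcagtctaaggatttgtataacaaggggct
Pcdhb7: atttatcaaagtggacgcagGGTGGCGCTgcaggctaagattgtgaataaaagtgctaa
They lie at chr18:29292201-29292259, chr18:29302394-29302452, chr18:29320142-29320200 and chr18:29328988-29329046, in that order, and the motif began 69, 52, 229 and 46 bases before the annotated gene start. The motif was present in 153 of 33469 promoters (0.457%), in 15 of 19 beta protocadherin promoters and in 0 of 15 gamma protocadherin promoters. It was found in 4 of the 4 beta genes that fell and in 9 of the 9 that were not called. Present in 14 of the 14 tested beta genes, these letters could not separate them. The search was for the exact letters, and near variants were not looked for.

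Over the whole clustered family, 35 genes were tested, 6 fell and 2 rose, against 5.03% and 3.09% of all genes. Besides Pcdhb5 and Pcdhb6, Pcdhb9 fell (log2 fold change −0.59), as did Pcdhb10 (−0.70), Pcdhga8 (−0.57) and Pcdhgb6 (−0.45). Those that rose were Pcdhb3 (0.50) and Pcdhga1 (1.30). Pcdhga1 was at 6.44, 1.41, 7.51 and 9.55 CPM in FIDch and 1.22, 0.714, 4.03 and 4.73 CPM in ISch, and its 3 lowest values were in the 3 libraries that stood apart. The median log2 fold change of the family was −0.031, near the −0.002 of all genes, and its summed level was 613 ± 14.9 CPM in FIDch and 619 ± 28.5 CPM in ISch (SD, n = 4). With those libraries left out, 4 members were called lower and 3 higher. The number called lower was 4 to 8 as each library was left out, and was highest without FIDch replicate 2. Protocadherin paralogs are alike in sequence, and how reads matching several genes were counted was not stated, so single members are uncertain.

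**Figure D2:**
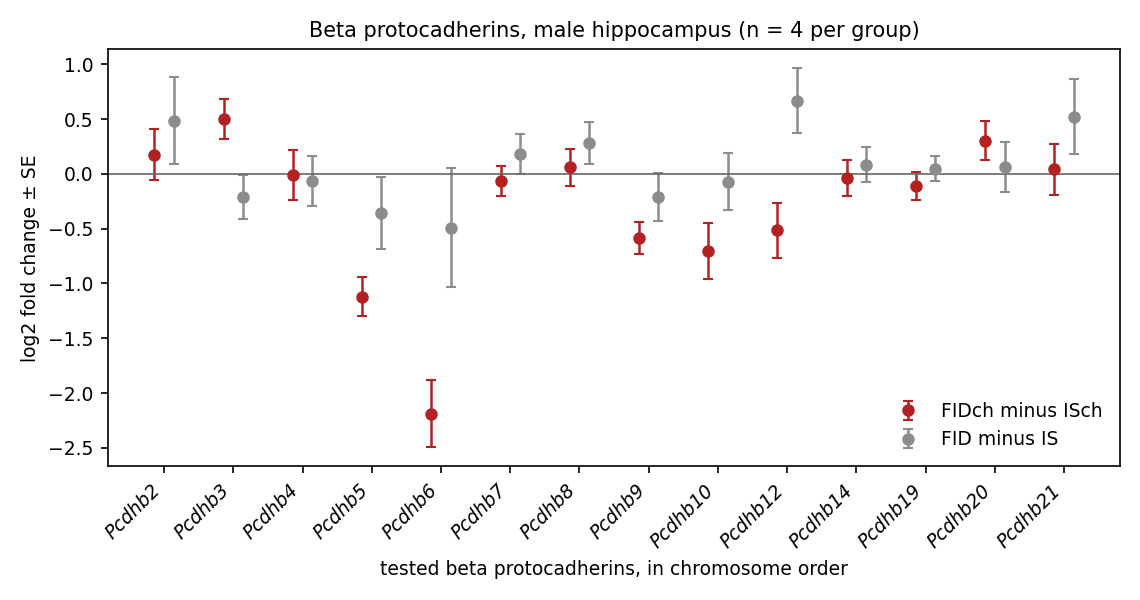
Log2 fold change (with SE) of the 14 tested beta protocadherins in chromosome order, for FIDch minus ISch (red) and, in other rats, FID minus IS (grey), 4 rats per group. Pcdhb6 (−2.19) and Pcdhb5 (−1.12) are the lowest red points, with Pcdhb4 (−0.010) and Pcdhb7 (−0.061) beside them near 0.

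Sec23ip (ENSRNOG00000020411) encodes a partner of the COPII coat that buds vesicles from the endoplasmic reticulum. Its level was 66.2, 75.1, 66.7 and 70.9 CPM in FIDch and 102, 99.5, 85.1 and 92.9 CPM in ISch. Every FIDch library was below every ISch library, and the decrease was 27.0% (log2 fold change −0.45, SE 0.0675, adjusted p = 0.0483). Edil3, an extracellular matrix protein that binds integrins, was at 181, 179, 204 and 180.0 CPM in FIDch and 245, 219, 238 and 239 CPM in ISch. Ppp1r2, an inhibitor of protein phosphatase 1, was at 153, 147, 151 and 150.4 CPM in FIDch and 189, 182, 179 and 181 CPM in ISch. Both separated the groups fully with narrow spreads, at log2 fold changes of −0.33 (SE 0.0576, adjusted p = 0.0746) and −0.28 (SE 0.0459, adjusted p = 0.0559). Bmp3, a member of the BMP family that opposes BMP signalling, was at 16.8, 31.4, 19.7 and 18.5 CPM in FIDch and 38.3, 31.7, 44.3 and 42.6 CPM in ISch. FIDch replicate 2 came close to the lowest ISch library, and the other 3 FIDch libraries were far below (log2 fold change −0.93, SE 0.154, adjusted p = 0.0568). Leaving out the 3 libraries, the Bmp3 difference was −1.24 with an adjusted p of 5.60e-05.

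Other genes with the smallest p among those lower in FIDch came from several pathways. Ndst4, which sulfates heparan chains, was at 12.5, 19.5, 17.8 and 15.2 CPM in FIDch and 26.9, 28.1, 23.9 and 23.3 CPM in ISch and had a log2 fold change of −0.68. Prkaa1, the catalytic alpha subunit of the energy sensor AMPK, was at 40.04, 44.6, 44.4 and 41.8 CPM in FIDch and 52.0, 51.4, 59.0 and 64.4 CPM in ISch and had a log2 fold change of −0.42. Kcnt2, a sodium-activated potassium channel, was at 57.8, 59.0, 60.5 and 62.7 CPM in FIDch and 79.4, 78.8, 74.6 and 69.1 CPM in ISch and had a log2 fold change of −0.33. In these 3 genes the groups did not overlap. The same was true of Pdcd10, a vascular and Golgi adaptor (40.6 ± 1.94 CPM in FIDch and 50.8 ± 1.02 CPM in ISch), of Scoc, a Golgi coiled-coil protein linked to autophagy (178 ± 9.28 CPM in FIDch and 215 ± 7.88 CPM in ISch), and of Blvra, biliverdin reductase (17.3 ± 1.87 CPM in FIDch and 24.8 ± 2.16 CPM in ISch; SD, n = 4). Their log2 fold changes were −0.32, −0.28 and −0.52. None of these 6 passed an adjusted p of 0.05, with values from 0.0933 for Ndst4 to 0.110 for Blvra in edgeR, and all 6 were called in each of the 19 alternatives run.

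Among increases, Atp1a4, a catalytic isoform of the sodium pump best known from sperm, had the largest fold of the named genes. It was at 4.42, 4.24, 4.64 and 6.86 CPM in FIDch and 0.243, 0.476, 2.01 and 1.58 CPM in ISch. The lowest FIDch library was above the highest ISch library, and the ISch values were lowest in replicates 1 and 2, which are among the 3 libraries that stood apart (log2 fold change 2.21, SE 0.391, adjusted p = 0.0845). Without those libraries its log2 fold change was 1.55 and its adjusted p 0.0684. The Atp1a4 level in ISch replicate 1 was below the 0.359 CPM that a count of 0 allowed in that library. On a scale shared by all male libraries, Atp1a4 was at 3.19, 0.735, 3.88 and 3.24 CPM in FID. In IS it was at 0.248, 2.74, 4.24 and 2.81 CPM, and the FID and IS values overlapped. Spns1, a lysosomal transporter of lysophospholipids, was at 129.7, 101, 129 and 135 CPM in FIDch and 92.5, 93.0, 97.6 and 89.4 CPM in ISch. FIDch replicate 2 was the lowest of its group and the groups did not overlap (log2 fold change 0.42, SE 0.0750, adjusted p = 0.0845). With the 3 libraries left out, Spns1 had a log2 fold change of 0.49 and an adjusted p of 0.0117.

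The single increase with an adjusted p under 0.05 belonged to a gene without a symbol, ENSRNOG00000047261, at 17.9, 16.9, 19.1 and 21.5 CPM in FIDch and 7.90, 11.7, 11.3 and 9.24 CPM in ISch. Another unnamed gene, ENSRNOG00000009104, was at 46.9, 50.8, 46.6 and 50.1 CPM in FIDch and 65.4, 58.4, 65.5 and 64.4 CPM in ISch. Neither overlapped between the groups, at log2 fold changes of 0.92 (SE 0.13005, adjusted p = 0.0414) and −0.39 (SE 0.0619, adjusted p = 0.0483) in edgeR.

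Mfge8, an astrocyte and vessel protein that tags cells for engulfment, was at 175, 158, 151 and 167 CPM in FIDch and 136, 136, 112 and 115 CPM in ISch. Kcnip3, also known as DREAM, which acts as a calcium sensor on potassium channels and at promoters, was at 58.9, 57.3, 65.4 and 61.2 CPM in FIDch and 52.4, 45.2, 47.7 and 41.8 CPM in ISch. All FIDch libraries exceeded all ISch libraries in both genes, at log2 fold changes of 0.38 (SE 0.0743) and 0.38 (SE 0.0745). Gstm4, a glutathione transferase, was at 31.5 ± 5.29 CPM in FIDch and 21.4 ± 1.47 CPM in ISch, and Lfng, a glycosyltransferase that tunes Notch receptors, was at 23.9 ± 1.84 CPM in FIDch and 17.4 ± 1.29 CPM in ISch (SD, n = 4). Gstm4 reached an adjusted p of 0.0169 without the 3 libraries and 0.105 with them in edgeR. Ido2, an enzyme of tryptophan breakdown, was at 2.15, 1.98, 1.66 and 1.94 CPM in FIDch and 0.243, 0.238, 1.01 and 0.525 CPM in ISch, and Trim45, a ubiquitin ligase, was at 8.71, 10.2, 7.29 and 8.65 CPM in FIDch and 3.28, 1.90, 5.16 and 4.83 CPM in ISch. Both rose without overlap (log2 fold changes 1.91 and 1.16), with the 2 lowest ISch values of each in ISch replicates 1 and 2. For Ido2, these values were below the 0.359 and 0.358 CPM that a count of 0 allowed in ISch replicates 1 and 2. At log2 fold changes of 1.33 and 0.71, the differences of Ido2 and Trim45 were smaller but still called without the 3 libraries. The adaptor genes Sh2b1 (0.26), Hip1 (0.31) and Slc9a3r1 (0.34) rose by smaller amounts, with no overlap between the groups.

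**Figure D3:**
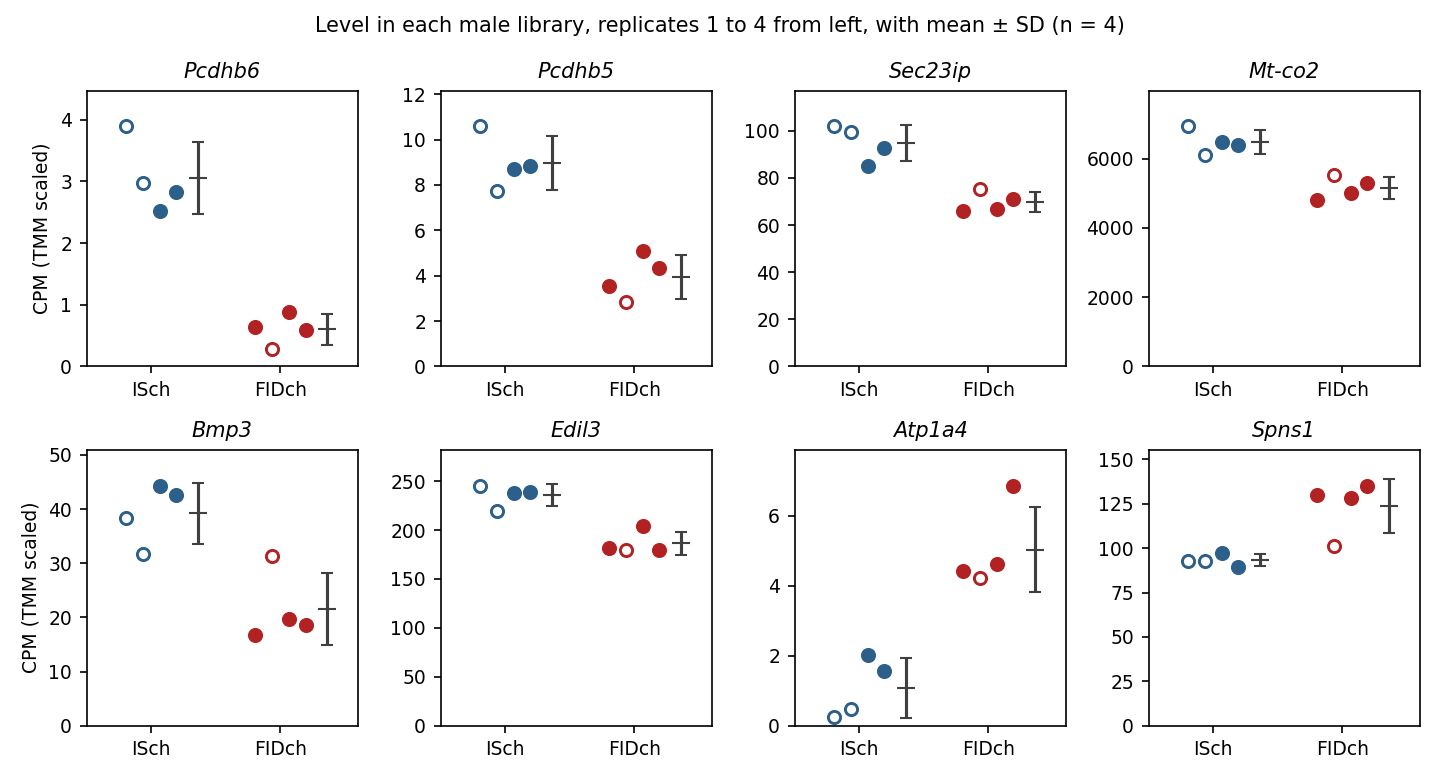
Normalised level (CPM) of 8 genes in each of the 4 ISch (blue) and 4 FIDch (red) male libraries, replicates 1 to 4 from left to right, with mean and SD beside them and the 3 libraries of the other name form as open symbols. FIDch libraries lie below all ISch libraries for Pcdhb6, Pcdhb5, Sec23ip, Mt-co2, Bmp3 and Edil3 and above them for Atp1a4 and Spns1.

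Genes of the mitochondrial genome moved in different directions. Mt-co2, a core subunit of cytochrome c oxidase (complex IV), was at 4812, 5534, 5014 and 5291 CPM in FIDch and 6929.5, 6101, 6484 and 6390.4 CPM in ISch. It fell in FIDch with no overlap (log2 fold change −0.33, SE 0.0504, adjusted p = 0.0483). Mt-nd1, a core subunit of complex I, was at 6717, 4787, 6526 and 6452 CPM in FIDch and 5023, 4401, 4886 and 4669 CPM in ISch. Mt-nd2, another complex I subunit, was at 7991, 5204, 8084 and 7488 CPM in FIDch and 5748, 4955, 5454 and 5158 CPM in ISch. Both rose (log2 fold changes 0.37 and 0.43), with FIDch replicates 1, 3 and 4 above all ISch libraries and FIDch replicate 2 inside the ISch range. Without FIDch replicate 2 their adjusted p values in edgeR were 0.000321 and 0.000202, against 0.155 and 0.155 with it. On a scale shared by all male libraries, Mt-nd1 was at 6071 to 6700 CPM in FID and 6202 to 7434 CPM in IS. Mt-nd2 was at 7683 to 8548 CPM in FID and 7924 to 8922 CPM in IS. FIDch replicates 1, 3 and 4 were there at 6441 to 6714 and 7474 to 8092 CPM. In both genes, each FID and IS library was above FIDch replicate 2 and every ISch library. The other 10 of the 13 mitochondrially encoded genes were not called (8.12% of all genes were). Among these, Mt-co1 was at 15669.9 ± 378 CPM in FIDch and 17497 ± 1019 CPM in ISch (SD, n = 4), its groups did not overlap, and its log2 fold change was −0.16. Without the 3 libraries, 4 mitochondrial genes were higher and 1 lower. Transcripts of this genome are cut from long precursors and have nuclear copies, and whether counting used the strand was not stated.

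The nuclear-encoded subunits of the respiratory chain moved little with all 8 libraries. Of 77 tested, 2 rose and 1 fell, below the share of called genes over all genes (8.12%), and the median log2 fold change was 0.029. Ndufs7, a complex I subunit that carries an iron-sulfur cluster, was at 67.2, 59.9, 61.1 and 59.1 CPM in FIDch and 56.2, 52.5, 49.1 and 49.6 CPM in ISch. It was higher in all FIDch libraries than in any ISch library (log2 fold change 0.26). Uqcr10 of complex III rose by 0.20 and Atp5md of ATP synthase fell by 0.40 on the log2 scale. When the 3 libraries were left out, 7 of 77 were higher and 0 lower, where 603 and 892 of 14156 genes were. At that setting, and without FIDch 1 or ISch 2 alone, the Atp5md call was lost (−0.30; leave-one-out −0.45 to −0.30), and the Uqcr10 call was lost without any 1 of 4 single libraries (FIDch 3 and 4, ISch 3 and 4), with leave-one-out values of 0.14 to 0.26.

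The list of glucocorticoid and mineralocorticoid receptors and their targets had the highest share of called genes of the 48 lists. Of its 15 genes, 6 were higher (3.09% of all genes were) and 0 lower. The median log2 fold change of the 15 was 0.21. Mt2A, a metallothionein that binds zinc and copper, was at 15.3, 13.8, 16.8 and 16.6 CPM in FIDch and 10.1, 7.50, 13.3 and 11.8 CPM in ISch. Sgk1, a kinase induced by corticosteroids, was at 101, 121, 71.8 and 68.0 CPM in FIDch and 55.4, 57.6, 65.1 and 68.1 CPM in ISch. Per1, which is both a hormone target and a clock gene, was at 82.0, 93.2, 70.2 and 77.0 CPM in FIDch and 55.3, 54.5, 66.7 and 71.8 CPM in ISch. Mt2A separated the groups, whereas Sgk1 and Per1 overlapped and were highest in FIDch replicates 1 and 2. Also called were Fkbp5, a chaperone that restrains the receptor (0.21), Tsc22d3 (0.21) and Ddit4, an inhibitor of mTOR (0.24).

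The summed level of the glucocorticoid list was 761, 841, 710.1 and 709 CPM in FIDch and 614, 646, 674 and 698 CPM in ISch, with Nr3c2, the mineralocorticoid receptor, as its most abundant gene. All 4 FIDch sums exceeded all 4 ISch sums. FIDch replicate 2 had the highest sum and ISch replicates 1 and 2 the lowest, and these are the libraries that stood apart. Without those 3, 1 of 15 was called higher and the median log2 fold change was 0.12. Per1 (0.14), Sgk1 (0.27) and Ddit4 (0.10) were then not called, nor were Fkbp5 and Tsc22d3, which left Mt2A. Leaving out FIDch replicate 2 or ISch replicate 1 by itself left 4 called.

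Markers of endothelial and mural cells were called higher in 5 of 13 and lower in 0 (3.09% and 5.03% of all genes), with a median log2 fold change of 0.17. Vwf, the clotting factor carrier of endothelium, was at 38.4, 41.5, 38.8 and 36.9 CPM in FIDch and 36.8, 32.9, 28.7 and 30.5 CPM in ISch. Pdgfrb, the pericyte growth factor receptor, was at 36.9, 44.3, 40.4 and 35.7 CPM in FIDch and 34.8, 32.0, 31.6 and 34.1 CPM in ISch. Each was higher in every FIDch library than in any ISch library, narrowly so for Vwf, at log2 fold changes of 0.26 and 0.23. The Vwf call was lost in the fit of the 4 male groups together. Cldn5, the tight junction protein of brain endothelium, rose with overlapping groups (0.26), and Rgs5 (0.22) and Myh11 (0.22), which mark mural cells, were called as well. The 13 markers summed to 457, 407, 463 and 435 CPM in FIDch and 432, 371, 409 and 406 CPM in ISch, and the sums overlapped. Abcb1a was the most abundant of them and none of the 13 was at 0 in all libraries. The count was 2 without the 3 libraries (Vwf and Cldn5, so that Rgs5 and Myh11 were also lost), 2 without FIDch replicate 1, 2 without FIDch replicate 3 and 3 without ISch replicate 2 or 4. Pdgfrb was not called without FIDch replicate 2 (leave-one-out 0.19 to 0.28) or without the 3 libraries (0.20), nor Cldn5 without FIDch 1, FIDch 3 or ISch 4 (leave-one-out 0.19 to 0.32). In tissue libraries, more cells of a type and more RNA per cell cannot be told apart, and the part of these markers in other results was not tested.

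**Figure D4:**
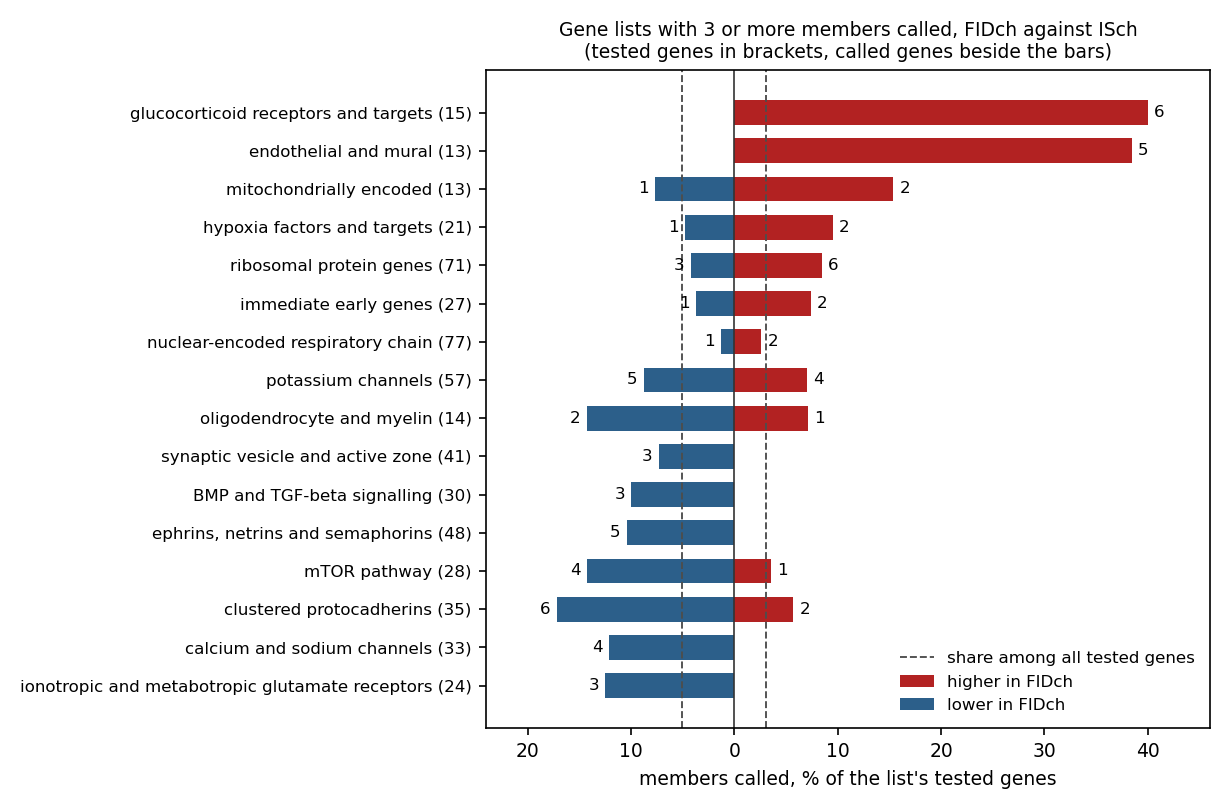
Share of each list's tested genes called higher (red, to the right) or lower (blue, to the left) in FIDch, for the lists with 3 or more called genes, with the number tested in brackets and the number called beside each bar. Dashed lines mark the shares among all tested genes, 3.09% higher and 5.03% lower, and the glucocorticoid list (6 of 15) and the endothelial and mural list (5 of 13) reach farthest right.

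Receptors for glutamate and GABA were called in the lower direction alone. Of 24 glutamate receptor genes 3 fell and 0 rose (5.03% of all genes fell), and the median log2 fold change was −0.14. Grm5, a metabotropic receptor coupled to calcium release, was at 114, 124, 130.1 and 142 CPM in FIDch and 153, 149, 146 and 148 CPM in ISch. The groups did not overlap (log2 fold change −0.22, SE 0.0629). Grm3, a presynaptic and glial metabotropic receptor, fell by 0.27 on the log2 scale, with overlapping groups. Gria2, the AMPA receptor subunit that limits calcium entry, was at 1048, 1223, 1124 and 1161 CPM in FIDch and 1285, 1260.2, 1307 and 1334 CPM in ISch. It was lower in all FIDch libraries but missed the fold limit (log2 fold change −0.19). The sums of the list were 4082 ± 198 CPM in FIDch and 4370.2 ± 96.2 CPM in ISch (SD, n = 4).

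Without FIDch replicate 2, whose glutamate receptor sum was the highest of its group, 6 of the 24 were lower, where 1020 of 14109 genes were. Without the 3 libraries 2 were lower, where 892 of 14156 genes were. In the fit of the 4 male groups together, Grm5, Grm3 and Gabrb2 were not called. The Grm5 call was lost without FIDch replicate 1 (leave-one-out −0.28 to −0.17), and the Grm5 and Grm3 calls without the 3 libraries (−0.19 and −0.19). Among 20 GABA genes, 2 fell and 0 rose (5.03% and 3.09% of all genes). Gabrb2, a GABA receptor subunit, was at 46.2, 54.8, 55.4 and 55.1 CPM in FIDch and 63.9, 55.5, 72.9 and 67.8 CPM in ISch, lower by more in FIDch replicate 1 than in the other FIDch libraries (log2 fold change −0.30).

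Ion channel subunits were called in both directions. Of 33 calcium and sodium channel genes, 4 fell and 0 rose, against 5.03% and 3.09% of all genes. Cacna2d1, an auxiliary calcium channel subunit that carries channels to the synapse, was at 137, 158, 139 and 149 CPM in FIDch and 177, 185, 163 and 178 CPM in ISch and separated the groups (log2 fold change −0.27). Cacnb4 (−0.30) and the sodium channels Scn1a (−0.27) and Scn2a (−0.21) fell with overlap. Cacna2d1 and Cacnb4 were not called in the fit of the 4 male groups. Scn2a was not called without FIDch 1, FIDch 3 or ISch 1 (leave-one-out −0.27 to −0.16). Potassium channels moved both ways, 5 lower and 4 higher of 57, beside the same shares of all genes (5.03% and 3.09%). Lower beside Kcnt2 were Kcnip1, an auxiliary subunit (12.5, 14.1, 15.02 and 12.7 CPM in FIDch and 18.1, 20.5, 15.6 and 18.1 CPM in ISch; −0.41), Kcnip4 (−0.21), Kcnab1 (−0.20) and Kcnh7 (−0.57). Higher beside Kcnip3 were Kcnk4 (0.31), Kcnn1 (0.24) and Kcnh3 (0.20). The number of lower potassium channel genes ranged from 2 without FIDch replicate 1 to 10 without FIDch replicate 2.

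Energy and growth signalling genes included both catalytic subunits of AMPK. With Prkaa1, Prkaa2 fell, from 18.4, 20.2, 21.3 and 18.2 CPM in ISch to 15.3, 17.8, 16.3 and 16.0 CPM in FIDch. The groups were separate, and the log2 fold change was −0.27; its call was lost in DESeq2 and in the fit of the 4 male groups together. Rictor, a component of mTOR complex 2, fell with overlap (−0.30). In all, 4 fell and 1, Ddit4, rose of 28 mTOR pathway genes (5.03% of all genes fell and 3.09% rose), whose median log2 fold change was 0.013. Mtor itself was at 144 ± 13.5 CPM in FIDch and 145 ± 7.92 CPM in ISch (SD, n = 4) and was not called. The Ddit4 call was lost without FIDch 1, FIDch 2, ISch 1 or ISch 2 (leave-one-out 0.17 to 0.33). In the 5 remaining libraries, 6 were lower and 1 higher.

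In the BMP and TGF-beta list, 3 of 30 genes fell and 0 rose, against 5.03% and 3.09% of all genes. Besides Bmp3 these were a pair of type I receptors. Tgfbr1 was at 27.0, 28.5, 32.6 and 28.8 CPM in FIDch and 37.3, 33.8, 36.6 and 36.5 CPM in ISch. Bmpr1a was at 42.9, 44.9, 48.2 and 44.8 CPM in FIDch and 60.7, 51.7, 49.7 and 56.2 CPM in ISch. Both separated the groups (−0.30 and −0.27), and both were called in each alternative. The number lower was 7 without FIDch replicate 2 and 5 without the 3 libraries. Among 48 ephrin, netrin and semaphorin genes, which steer axons, 5 fell and 0 rose, against 5.03% and 3.09% of all genes. The median log2 fold change of the 48 was −0.0055, with 23 positive and 25 negative. Those that fell were Epha3 (−0.35), Epha5 (−0.20), Sema3e (−0.28), Unc5c (−0.24) and Slit2 (−0.21). Sema3e was at 42.4, 42.1, 41.4 and 38.1 CPM in FIDch and 47.4, 47.1, 49.6 and 54.1 CPM in ISch, with no overlap, and its call was lost in the fit of the 4 male groups. Epha5 lay at the fold limit and was not called in 10 of the 19 alternatives, FIDch 1, 3 and 4 and ISch 1 and 3 left out among them (leave-one-out −0.26 to −0.17). The guidance count was 2 without FIDch 1 or FIDch 3 and 7 without FIDch 2.

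At the synapse, 3 of 41 vesicle and active zone genes fell, near the 5.03% of all genes: Syt4 (−0.22), Syt2 (−0.37) and Slc17a6 (−0.57). Slc17a6, the glutamate transporter used mainly by subcortical neurons, was at 12.9, 16.9, 15.2 and 14.5 CPM in FIDch and 27.6, 20.4, 25.6 and 14.1 CPM in ISch. ISch replicate 4 lay inside the FIDch range and the other 3 ISch libraries above it. The Syt4 call was lost without FIDch 1, FIDch 2 or ISch 3 (leave-one-out −0.28 to −0.18) and the Syt2 call without FIDch 1, FIDch 3 or ISch 1 (−0.43 to −0.21) or the 3 libraries (−0.22). Of 35 plasticity kinase and phosphatase genes, Camk2g (−0.61) and Ppp1r9a (−0.24) fell, near the 5.03% of all genes. Ppp1r9a was not called when FIDch 1, FIDch 3, FIDch 4, ISch 1 or ISch 2 was left out (−0.33 to −0.17), nor Camk2g in the fit of the 4 male groups or without the 3 libraries (−0.44). Nts, the neuropeptide neurotensin, which marks subicular neurons, was at 24.9, 26.3, 23.3 and 19.8 CPM in FIDch and 39.1, 30.6, 35.0 and 26.6 CPM in ISch. It fell, with ISch replicate 4 just above the FIDch range (log2 fold change −0.49) and was the sole gene called of 21 neuropeptide genes and of 10 subiculum and neocortex markers. Those 10 markers summed to 511, 494, 519 and 507 CPM in FIDch and 552, 527, 573 and 527 CPM in ISch, lower in every FIDch library, with Bcl11b most abundant. Their part in the lower neuronal genes was not tested. Bdnf, the neurotrophin, was at 45.3, 42.7, 42.1 and 38.9 CPM in FIDch and 37.4, 32.3, 54.3 and 42.4 CPM in ISch, with overlap, and 0 of 18 neurotrophin genes were called in edgeR.

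Genes of iron handling were not called with all 8 libraries. Of 20 iron transport and storage genes, 0 met the criterion in edgeR, as 8.12% of all genes did, and their log2 fold changes ran from −0.15 to 0.28. Tfrc, the transferrin receptor that rises in iron-poor cells, was at 174, 168, 162 and 163 CPM in FIDch and 174, 165, 179.8 and 179 CPM in ISch. Fth1, the ferritin heavy chain, was at 1072, 1033, 928 and 901 CPM in FIDch and 976, 1014, 1039 and 970.3 CPM in ISch. The groups overlapped in both, with log2 fold changes of −0.066 (SE 0.04998) and −0.025 (SE 0.0566). The translational regulator Ireb2 was at 44.8 ± 5.23 CPM in FIDch and 49.0 ± 1.90 CPM in ISch and the importer Slc11a2 at 67.5 ± 4.68 CPM in FIDch and 65.4 ± 2.79 CPM in ISch (SD, n = 4). Ireb2, at −0.15 with all libraries, was called lower without FIDch replicate 2 (−0.20) and without the 3 libraries (−0.20). The list had 1 higher and 1 lower gene without FIDch replicate 2, 1 lower without the 3 libraries and 1 higher without ISch replicate 4. In the heme and iron-sulfur list 2 of 26 fell (5.03% of all genes), Blvra and Uros, the latter an enzyme of heme synthesis (−0.28) whose call was lost without FIDch 1, FIDch 2, ISch 2 or ISch 3 (leave-one-out −0.34 to −0.20) and without the 3 libraries (−0.32).

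Of 30 choline and one-carbon genes, 2 fell and 0 rose, near the 5.03% of all genes that fell, at a median log2 fold change of 0.020. These were Cept1 and Chpt1, the enzymes of the last step of phosphatidylcholine synthesis. Cept1 was at 39.2, 35.0, 39.1 and 33.7 CPM in FIDch and 45.9, 37.6, 45.6 and 42.1 CPM in ISch. Chpt1 was at 26.4, 35.6, 36.7 and 32.1 CPM in FIDch and 44.7, 37.4, 34.7 and 36.0 CPM in ISch. Both overlapped between groups (−0.21 and −0.23). Neither call held when single libraries were removed: Cept1 was lost without FIDch 2, FIDch 4, ISch 1 or ISch 3 (leave-one-out −0.27 to −0.16), and Chpt1 without FIDch 1, FIDch 4, ISch 1, ISch 2 or ISch 4 (−0.31 to −0.13) or the 3 libraries (−0.15). Pcyt1a, which sets the rate of that pathway, was at 58.6 ± 6.25 CPM in FIDch and 58.0 ± 1.76 CPM in ISch, and choline kinase Chka at 37.7 ± 2.91 CPM in FIDch and 35.8 ± 4.05 CPM in ISch (SD, n = 4). Among chromatin genes, 1 of 20 H3K9 methylation genes was called, the demethylase Kdm7a (−0.28), where 8.12% of all genes were, and it was lost without FIDch 1, FIDch 3, FIDch 4, ISch 1 or ISch 2 (−0.40 to −0.21), and with the exact test, DESeq2, the 4 male groups in 1 fit or a term for the name form. The demethylase Kdm4a was at 79.2 ± 2.93 CPM in FIDch and 81.2 ± 4.44 CPM in ISch and the methyltransferase Ehmt2 at 253 ± 17.2 CPM in FIDch and 237 ± 8.29 CPM in ISch. For DNA methylation 0 of 15 were called in edgeR, and without the 3 libraries 1 was higher and 2 lower.

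Activity-induced genes depended on the libraries that stood apart. With all 8 libraries, 2 of 27 immediate early genes were higher, Per1 and Nptx2, and 1 was lower, Arl4d, against 3.09% and 5.03% of all genes. Nptx2, a secreted pentraxin that gathers AMPA receptors, was at 94.97, 94.9, 95.7 and 81.2 CPM in FIDch and 63.6, 67.0, 79.2 and 89.3 CPM in ISch. The list summed to 1217, 1263, 1102 and 1088 CPM in FIDch and 973, 1024, 1326 and 1216 CPM in ISch, with Egr1 most abundant. ISch replicates 1 and 2 had the lowest sums and ISch replicate 3 the highest. Without the 3 libraries, 14 of 27 were lower and 0 higher, where 892 and 603 of 14156 genes were, with a median log2 fold change of −0.22 against 0.029 with them. Leaving out ISch replicate 1 alone gave 5 lower. Arl4d (−0.39) was lost without any 1 of FIDch 1 to 4, ISch 3 or ISch 4 (leave-one-out −0.52 to −0.22), and Nptx2 (0.29) was not called without the 3 libraries (0.11).

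Ribosomal protein genes gave 6 higher and 3 lower of 71, where 3.09% and 5.03% of all genes were. Rpl13a (0.38), Rpl29 (0.23) and Rpl10a (0.27) were among the higher, all from families with many near-identical copies, and without the 3 libraries 10 were higher and 1 lower. Rpl29 and Rpl10a were not called without FIDch replicate 1 (leave-one-out 0.16 to 0.29 and 0.20 to 0.34), nor Rpl13a and Rpl10a without the 3 libraries (0.21 and 0.21). Of 29 chaperone genes 21 had a negative log2 fold change, and the list's sums were 6069, 6211, 6184 and 6097 CPM in FIDch and 6381, 6227, 6681 and 6439 CPM in ISch. The FIDch sums were all below the ISch sums, at 6140.4 ± 68.0 CPM in FIDch and 6432 ± 189 CPM in ISch (SD, n = 4). The most abundant gene in these sums was Hsp90ab1. Of the 29, Hsp90aa1 alone was called (−0.50), where 8.12% of all genes were called and 5.03% were lower. It was not called without FIDch 2, FIDch 3, FIDch 4, ISch 1 or ISch 2 (leave-one-out −0.68 to −0.34). It was near 0 without the 3 libraries (−0.038) and also not called with a term for the name form. Of 21 hypoxia genes, Epas1 (311, 240.1, 277 and 270.4 CPM in FIDch and 242, 219, 230.5 and 243 CPM in ISch; 0.24) and Ddit4 rose and Bnip3 (−0.21) fell, beside 3.09% and 5.03% of all genes. Epas1 was lost without FIDch 1 (0.18 to 0.29) and Bnip3 without FIDch 2, FIDch 4, ISch 1 or ISch 2 (−0.25 to −0.16), and Bnip3 also without the 3 libraries (−0.081). In the clock list of 19, beside those same shares, Per1 rose and Clock fell (−0.24), the latter not called without FIDch 1 or ISch 1 (−0.29 to −0.16) or without the 3 libraries (−0.16).

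Among monoamine, opioid and cannabinoid genes, 1 of 27 rose, the serotonin-gated channel Htr3a (0.44), and 1 fell, the serotonin receptor Htr4, where 3.09% of all genes rose and 5.03% fell. Htr4 was at 5.56, 6.78, 5.74 and 5.67 CPM in FIDch and 7.42, 6.55, 9.69 and 8.40 CPM in ISch. FIDch replicate 2 overlapped the ISch range and the other FIDch libraries did not (log2 fold change −0.46). Ifi27, an interferon-induced gene, was the only one called of 25 antigen presentation and interferon genes (8.12% of all genes were called), at 29.6, 87.0, 28.5 and 36.0 CPM in FIDch and 95.5, 103, 32.2 and 62.8 CPM in ISch. Its high values were those of FIDch replicate 2 and ISch replicates 1 and 2, followed by ISch replicate 4, and the call (−0.83) was lost without FIDch 1, FIDch 3, FIDch 4, ISch 1 or ISch 2 (leave-one-out −1.24 to −0.62). No gene was called in edgeR in the lists of splicing factors (24 tested), amyloid and tau genes (25), actin and microtubule regulators (37) and rat MHC genes (14). Among the other 5 libraries, those lists had 1, 2, 2 and 0 genes called, all lower.

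Myelin and oligodendrocyte markers were mixed, with Mal higher and Ermn and Opalin lower of 14 (3.09% and 5.03% of all genes). Mal, a raft protein of compact myelin, was at 305, 279, 305 and 268 CPM in FIDch and 269, 222, 230.5 and 225 CPM in ISch. Ermn, which shapes the outer myelin tongue, was at 73.6, 85.0, 82.5 and 80.6 CPM in FIDch and 98.1, 89.5, 107 and 101 CPM in ISch. The groups were separate in Ermn and overlapped slightly in Mal (−0.30 and 0.29), and Opalin (−0.26) was not called without FIDch replicate 4 (leave-one-out −0.36 to −0.17) or without the 3 libraries (−0.23). The list summed to 9319 ± 749.5 CPM in FIDch and 9042 ± 265 CPM in ISch (SD, n = 4). Of 7 precursor markers, Gpr17 and Olig2 rose (0.21 and 0.21) and 0 fell, beside those same shares of all genes, at sums of 318, 306, 297 and 295 CPM in FIDch and 309, 309.9, 269 and 258 CPM in ISch, led by Olig1. With those libraries left out, 4 of the 7 were higher. Gpr17, Olig2 and Opalin were not called in the fit of the 4 male groups. Gpr17 was lost without FIDch 4 or ISch 2 (0.19 to 0.23), and Olig2 without FIDch 1, FIDch 2, ISch 1, ISch 3 or ISch 4 (0.13 to 0.27).

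Aqp4, the water channel of astrocyte endfeet, was at 557, 739, 740.3 and 636 CPM in FIDch and 862, 719.7, 821 and 761 CPM in ISch. It was the only gene called of 12 astrocyte markers, beside 8.12% of all genes (log2 fold change −0.25), and not without FIDch replicate 1 (leave-one-out −0.30 to −0.16). The astrocyte markers summed to 5452 ± 212 CPM in FIDch and 5547 ± 268 CPM in ISch, led by S100b (SD, n = 4). Microglial markers gave 0 of 10 called in edgeR and 2 higher and 1 lower without the 3 libraries, and their sums were 245 ± 12.7 CPM in FIDch and 245 ± 7.82 CPM in ISch, led by Csf1r. Meningeal fibroblast markers gave 2 of 8 higher (3.09% of all genes), Col1a1 (0.46) and Col3a1 (0.38), at sums of 98.4, 82.5, 107 and 80.1 CPM in FIDch and 79.3, 85.5, 81.3 and 95.3 CPM in ISch, led by Dcn and with 1 marker at 0 in all libraries. Col1a1 was at 16.0, 12.7, 15.7 and 14.3 CPM in FIDch and 9.36, 9.52, 10.1 and 14.3 CPM in ISch. FIDch libraries were above ISch replicates 1 to 3, and ISch replicate 4 lay among them. Without the 3 libraries Col1a1 was not called (0.32), and Col3a1 was lost without FIDch 1, FIDch 2, FIDch 3, ISch 3 or ISch 4 (0.29 to 0.51).

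In blood, 1 of 5 markers rose (3.09% of all genes did), Hba-a2 (0.33), which led that list, at summed levels of 95.9, 120.1, 124 and 108 CPM in FIDch and 94.5, 83.2, 91.4 and 133 CPM in ISch. It was not called in the fit of the 4 male groups, without ISch replicate 2 (leave-one-out 0.27 to 0.49) or without the 3 libraries (0.13). Among neuronal markers, 0 of 9 excitatory, 0 of 6 CA1, 0 of 10 dentate gyrus, 0 of 6 immature dentate and 0 of 9 striatal genes were called in edgeR, and without the 3 libraries these lists gave 0, 0, 1, 2 and 0. The sums were 7045 ± 282 CPM in FIDch and 7003 ± 125 CPM in ISch for excitatory neurons, 847 ± 54.2 CPM in FIDch and 835 ± 28.2 CPM in ISch for CA1 and 530.2 ± 11.9 CPM in FIDch and 527 ± 8.67 CPM in ISch for the dentate gyrus (SD, n = 4). For the next 3 lists, 5.03% of all genes were lower and 3.09% higher. Interneuron markers gave 1 of 13 lower, Nxph1 (−0.24, not called without ISch 3, leave-one-out −0.29 to −0.19), and CA2 and CA3 markers gave 1 of 10 lower, Nectin3 (−0.23, not called without FIDch 1 or ISch 4, leave-one-out −0.30 to −0.18). Thalamic and habenular markers gave Lef1 higher (0.30, not called in 12 of the 19 alternatives, 6 of them single libraries left out, at 0.25 to 0.34, and without the 3 libraries, at 0.34) and Slc17a6 lower of 9, at sums of 128 ± 6.15 CPM in FIDch and 132 ± 8.53 CPM in ISch. The part of tissue composition in the differences of other genes was not tested.

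The same iron contrast was available without choline, in other male rats. Between FID and IS, 640 of 13851 genes met the criterion (4.62%), 324 higher and 316 lower, and 0 had an adjusted p under 0.05 in edgeR, where 787 had an unadjusted p under 0.05; DESeq2 gave 467 genes at the criterion. The count moved to 392 with IS replicate 1 left out and 1236 with IS replicate 3 left out. These rats share no library with the choline-supplemented ones. Of the 425 genes that rose in FIDch against ISch and were tested in FID against IS, 24.7% had the same sign there, against 47.3% of all genes. Of the 694 that fell, 27.2% had the same sign, against 52.7% of all genes. As each choline library was left out, these shares stayed between 24.3% and 30.6% for genes that rose and between 22.4% and 33.9% for genes that fell. Leaving out the 3 libraries, they were 23.6% and 23.8%. As each FID or IS library was left out, they ran from 23.3% to 32.5% for genes that rose and from 25.5% to 34.7% for genes that fell. IS replicate 1 stood apart from the other IS libraries in several named genes, and without it the shares were 30.4% and 34.7%, against 48.5% and 51.5% of all genes. At the criterion in both contrasts, 24 of the higher and 60 of the lower genes had opposite signs and 4 and 10 had the same sign.

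**Figure D5:**
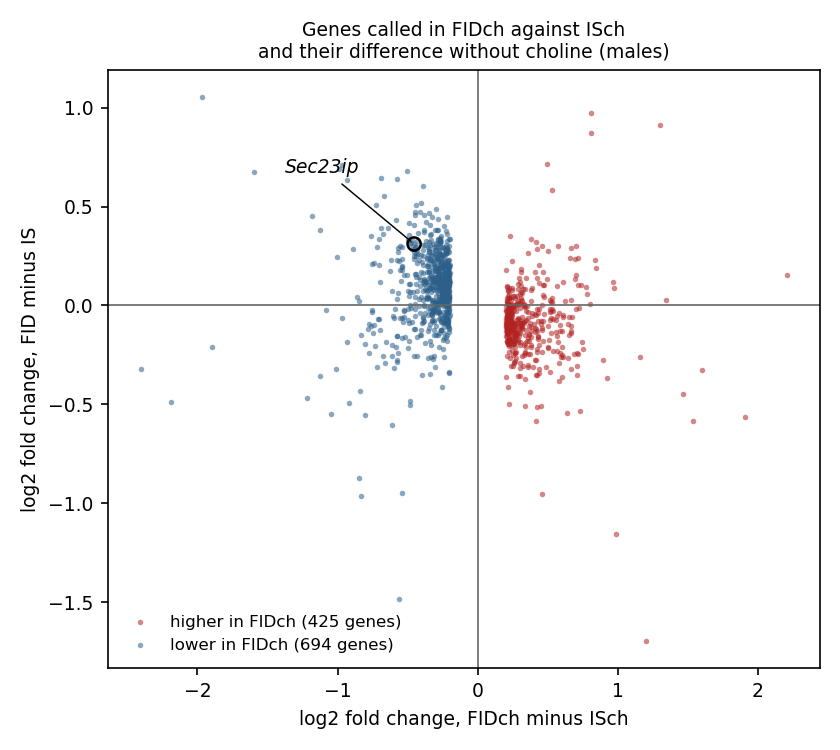
Log2 fold change of FIDch minus ISch (horizontal) against that of FID minus IS (vertical), in males, for the 425 genes called higher (red) and 694 called lower (blue) with choline, with 4 rats in each of the 4 groups. Same signs were found for 24.7% of the red and 27.2% of the blue genes, and Sec23ip (circled) is at −0.45 and 0.31.

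The difference between the iron effects with and without choline was tested gene by gene in the 16 male libraries. An adjusted p under 0.05 was found for 1 gene of 14314 (0.00699%), Sec23ip, and 2210 had an unadjusted p under 0.05. Scaled by library size alone, Sec23ip was at 101, 89.5, 80.9 and 92.0 CPM in FID and 65.5, 68.2, 81.9 and 75.2 CPM in IS. It was therefore higher in FID than in most IS libraries, with FID replicate 3 just under IS replicate 3, while it was lower in FIDch than in ISch. The log2 fold change was 0.31 without choline and −0.45 with it, a difference of −0.76 (SE 0.116, adjusted p = 0.0412 in edgeR). That difference ran from −0.82 to −0.71 over the alternatives and its adjusted p from 6.97e-06 in DESeq2 to 0.189 without FIDch replicate 1, and the p stayed under 0.05 only without FIDch 2 or ISch 3 among the 8 choline libraries left out in turn. It was 0.117 with a replicate block and 0.0928 without the 3 libraries. Among the 8 FID and IS libraries left out in turn, the adjusted p was lost without FID 4, IS 1, IS 2 or IS 4 (0.136, 0.0820, 0.1405 and 0.0948).

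Other genes did not pass the test of the difference. Bmp3 had a log2 fold change of 0.63 in FID against IS beside −0.93 in FIDch against ISch (adjusted p of the difference 0.132 in edgeR), and Mt-nd1 had −0.15 beside 0.37 (adjusted p 0.132). Bmp3 was at 19.8, 29.0, 47.4 and 28.2 CPM in FID and 16.3, 17.4, 22.1 and 24.7 CPM in IS. FID replicate 3 was far above the others, and the groups overlapped. Pcdhb6 and Pcdhb5 were at −0.49 and −0.36 without choline, with adjusted p values of the difference of 0.257 and 0.362 in edgeR. Pcdhb6 was at 1.94, 0.525, 0.941 and 1.56 CPM in FID and 1.37, 3.46, 1.67 and 0.296 CPM in IS. Pcdhb5 was at 7.90, 4.10, 4.12 and 4.32 CPM in FID and 9.44, 8.35, 3.33 and 4.29 CPM in IS. The groups overlapped in both genes. The highest values were those of IS replicate 2 for Pcdhb6 and of IS replicates 1 and 2 for Pcdhb5. The median log2 fold change of the glutamate receptors was 0.10 in FID against IS, and 0.033 without IS replicate 1. That of the glucocorticoid list was −0.061, and −0.089 to 0.031 as each FID or IS library was left out.

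In females, FIDch and ISch differed at the criterion in 663 of 14521 genes (4.57%), 264 higher and 399 lower, and 1 had an adjusted p under 0.05 in edgeR, ENSRNOG00000051569 (log2 fold change −3.98, adjusted p = 0.00808). The female libraries came from the other sequencing batch, and a sex difference cannot be told apart from a batch difference. Of the genes that rose in males, 37.4% of 409 had the same sign in females, against 49.7% of all genes, and of those that fell, 51.7% of 679 did, against 50.3%. Pcdhb6 and Pcdhb5 had female log2 fold changes of 1.14 and 0.42, and Sec23ip of 0.10. Female Pcdhb6 was at 1.34, 4.83, 1.34 and 3.53 CPM in FIDch and 1.33, 1.42, 1.17 and 1.09 CPM in ISch. FIDch replicates 1 and 3 lay inside the ISch range. Female Pcdhb5 was at 9.02, 10.2, 6.01 and 14.9 CPM in FIDch and 7.37, 7.15, 7.19 and 8.28 CPM in ISch. These groups overlapped too, and FIDch replicate 4 was the highest. Mt-co2 was at −0.033 and Spns1 at −0.022 in females. The glucocorticoid list had a female median log2 fold change of −0.18. Female Per1 was at 51.1 to 73.7 CPM in FIDch and 80.7 to 91.3 CPM in ISch, without overlap. Sgk1, Mt2A and Ddit4 overlapped between the female groups. In the test of the sex difference itself, 1 of 15125 genes (0.00661%) had an adjusted p under 0.05, ENSRNOG00000017412, which has no symbol. By library size it was at 2.51, 0.853, 1.55 and 1.79 CPM in male FIDch and 0.718, 0.358, 0.125 and 0.630 CPM in male ISch. In females it was at 0.0396, 0, 0.0893 and 0.0474 CPM in FIDch and 0.836, 0.434, 0.682 and 0.592 CPM in ISch. It was higher in FIDch in males and lower in females, without overlap in either sex, and its levels were low in all 4 groups (difference 5.61 on the log2 scale, SE 0.720, adjusted p = 0.00574 in edgeR).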

How the data were processed

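Hippocampal total RNA of 32 rats was sequenced, and 8 male libraries (4 FIDch, 4 ISch) were the subject, with the FID, IS and female libraries for comparison. The authors deposited raw counts of reads per gene. Their processing notes name FastQC, Trimmomatic, HISAT2, featureCounts and Subread and the build Rnor_6.0, without versions there; strandedness and the handling of reads matching several genes were not stated. The tables hold 32883 entries, of which 2637 repeat a symbol. Samples were grouped by their labels.

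The fits were run in edgeR 4.0.16 under R 4.3.3: filterByExpr, TMM, glmQLFit and glmQLFTest for each pair of groups, with a 2-sided test and Benjamini-Hochberg adjustment over all genes tested. A call needed a log2 fold change beyond 0.2 in either direction with p below 0.05 before adjustment, as in the study. Differences between contrasts were tested in a single model of 16 libraries. Principal components used log2 CPM with 0.5 added, for genes with a mean of at least 10 CPM. Lists are described by counts, medians and summed CPM, with no test. The fits were tested on simulated data, and no result of that test is given or used here.

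Named genes are, among those with a symbol, the 12 with the smallest p in each direction, up to 3 called members of each list (or its most abundant gene where none was called), and a few fixed genes of iron, choline and chromatin biology. Other genes were named after their values were seen: Pcdhb4, Pcdhb7, Pcdhb10, Pcdhga1, Gria2, Mt-co1, and further called members of the lists. The members and lists were chosen with earlier results of these data known. Promoters came from RefSeq (GRCr8); by identifier or symbol, RefSeq held 12313 of the 13958 tested genes. Alternatives were DESeq2 1.42.0, the exact and likelihood ratio tests of edgeR, scaling by RLE or by library size, 2 other filters, the 4 male groups in 1 fit, a replicate block, a term for the name form, leaving out the 3 libraries of that form, each library left out, and no fold limit. Leaving those 3 out of the tests of differences between contrasts was chosen after seeing the data, as was leaving out FID and IS libraries for the test of the difference, the shares of same signs and the list medians without choline.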

Additional observations from a re-analysis of the deposited data

Results flagged for a closer look

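A library far from the other 3 of its group was found in 19 of 228 gene groups (8.33%), of which chance flags about 1 in 20 (5%). FIDch replicate 2, the shallowest library, held 7 of the 19. It was high for Epha5 (203 CPM), Htr4 (6.78 CPM), Ifi27 (87.0 CPM), Kdm7a (28.0 CPM) and Sort1 (1159.6 CPM), and low for Mt-nd1 (4787 CPM) and Chka (33.3 CPM). ISch replicate 4 was apart for Col1a1 (14.3 CPM), Hba-a2 (54.1 CPM), Slc5a7 (5.78 CPM) and Slc40a1 (2.52 CPM), all high, and for Col3a1 (4.83 CPM), low. FIDch replicate 1 was low for Gabrb2 (46.2 CPM) and high for Wfs1 (462 CPM), FIDch replicate 3 was high for Edil3 (204 CPM), and FIDch replicate 4 was high for Atp1a4 (6.86 CPM) and low for Nptx2 (81.2 CPM). ISch replicate 1 was high for Mbd3 (73.5 CPM) and ISch replicate 2 for Prox1 (128 CPM). Among the called genes, the outlying library lay toward the other group for Mt-nd1, Epha5, Htr4, Ifi27, Kdm7a, Edil3, Nptx2, Col1a1 and Hba-a2. The cause was not tested.

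A test of the difference between effects of iron history gave an adjusted p under 0.05 in edgeR for Sec23ip (with minus without choline, −0.76 on the log2 scale), and it was lost with 6 of the 8 choline and 4 of the 8 FID and IS libraries left out in turn, with a replicate block and without the 3 libraries. It also did for ENSRNOG00000017412 (males minus females, with choline, 5.61), where sex and sequencing batch go together.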

How the results depend on the processing

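The 1133 genes at the criterion stayed within 1.5 times in the other fits except with no fold limit (1899); as each library was left out the count was 781 to 1634, and with a replicate block 1134. Lower genes were the majority throughout (55.2% to 62.4%). Genes with an adjusted p under 0.05 numbered 6, against 135 with the likelihood ratio test, 99 with the exact test, 74 with DESeq2, 53 with all genes of at least 1 count, 21 with a name form term, 27 without the 3 libraries, 2 with RLE or library size scaling, 0 with the 4 male groups in 1 fit or a replicate block, and 0 to 76 as each library was left out. For the difference between the effects with and without choline, 1 gene became 86 (likelihood ratio), 131 (DESeq2), 3 (all genes), 0 (replicate block), 3 (without the 3 libraries) and 0 to 8 (each male FIDch or ISch library left out) or 0 to 4 (each FID or IS library); for males minus females, 1 became 59, 72, 2, 1, 6 and 1 to 8. FID against IS had 640 genes, 795 with a replicate block, and 392 (without IS 1) to 1236 (without IS 3); female FIDch against ISch had 663, 794, and 572 to 1025 (without FIDch 4). Deviations of same-numbered FIDch and ISch libraries had correlations of −0.27, 0.24, 0.27 and 0.025 over 9962 genes. Those of differently numbered libraries ran from −0.30 to 0.33, so this check did not settle whether numbers pair samples. Of 87 named genes called, 39 were called under all 19 alternatives and none changed sign. Of 27 not called, 13 changed sign under at least 1: RT1-N2 (−0.12), Slc11a2 (−0.012), Slc40a1 (−0.074), Bdnf (−0.19), Mtor (0.023) and Wfs1 (0.030) without the 3 libraries; Slc40a1 (−0.078), Slc17a7 (−0.012), Bdnf (−0.061), Mtor (0.017) and Pcyt1a (0.029) with a name form term; Wfs1 and Pcyt1a with DESeq2 (0.0013, 0.0042), RLE (0.0014, 0.0034), library size (0.0029, 0.0057) and the 4 groups in 1 fit (0.0016, 0.0078); and Pcyt1a with a replicate block (0.0013). With each library left out they spanned −0.0093 to 1.28 (RT1-N2), −0.068 to 0.0022 (Kdm4a), −0.0013 to 0.069 (Ppp1r1b), −0.064 to 0.022 (Fth1), −0.37 to 0.63 (Slc5a7), −0.10 to 0.31 (Slc40a1), −0.013 to 0.045 (Slc17a7), −0.078 to 0.17 (Bdnf), −0.048 to 0.054 (Mtor), −0.023 to 0.040 (Apoe), −0.088 to 0.034 (Wfs1) and −0.062 to 0.039 (Pcyt1a). In FID against IS the glucocorticoid list's median (−0.061) was −0.089 (without FID 1) to 0.031 (without IS 2). Of 48 gene lists, each with few calls, 44 moved by over 1.5 times in at least 1 of 12 settings. The cause was not tested. With 4 rats a group and totals down to 3515806 counts, some small differences, and differences in genes of a few counts, may have been missed.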

Other observations

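Wnt6, a secreted ligand of the Wnt family, had too few libraries with counts to be tested in FIDch against ISch. Its raw counts were 71, 0, 80 and 50 in FIDch replicates 1 to 4 and 0, 0, 1 and 0 in ISch, and 0 to 2 in the 8 FID and IS libraries. FIDch replicate 2, the library of the other name form, was thus at 0 while the other 3 FIDch libraries were high. Wnt6 was noticed after its values were seen, in the fits without FIDch replicate 2 and without the 3 libraries. Zmiz2, noticed in the fit without the 3 libraries alone, had 6, 4, 5 and 4 counts in FIDch and 2, 32, 38 and 33 in ISch, and was as scattered without choline, at 2, 39, 5 and 9 in FID and 14, 20, 26 and 6 in IS. Slc39a12, a zinc transporter of astrocytes, was at 2.90, 2.54, 4.53 and 3.88 CPM in FIDch and 5.11, 2.38, 18.1 and 17.9 CPM in ISch. ISch replicates 1 and 2 were at the FIDch level and ISch replicates 3 and 4 were higher.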
